A study of Capra hircus with 6 samples.

Results

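The genes of the WNT signalling system, from ligands and receptors to secreted inhibitors and feedback genes, were examined in goats (Capra hircus), in the medio-basal hypothalamus. Members were chosen by gene symbol, with a fixed pattern covering WNT, FZD, SFRP, FRZB, DKK, WIF1, LRP5, LRP6, RSPO, LGR, ROR, RYK, AXIN, LEF1, TCF7, TCF7L1, NKD and NOTUM. The pattern matched 58 of the 28907 rows of the count table. The 2 groups were January follicular phase and May anestrus, the season without ovarian cycles, both from adult Alpine goats with no further treatment named in the labels. The design text lists 5 goats for the follicular phase and 8 for anestrus, out of 18 in all, with the other 5 in the luteal phase, whose 2 libraries were not analysed here. Each library is an equimolar mix of RNA from several goats, drawn at random, with 2 mixes per condition. How many goats entered a mix, and whether a goat entered both, is not given in the sources used here, so every p-value below measures the spread between 2 pools and may be partly technical. Season and ovarian state differ together between the groups and cannot be told apart.

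WNT proteins are lipid-modified secreted ligands. They bind Frizzled receptors, and in the beta-catenin branch also the co-receptors LRP5 or LRP6, which halts the breakdown of beta-catenin and lets it act with TCF/LEF factors on target genes. R-spondins raise the response through LGR receptors, while SFRP, DKK, WIF1 and NOTUM proteins restrain it outside the cell. In the arcuate nucleus of Djungarian hamsters, components of this pathway are known to vary with day length, and LEF1 is needed for the formation of some hypothalamic neurons in zebrafish and mouse.

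Follicular pools 1 and 2 held 25292678 and 17090623 counts, and anestrus pools 1 and 2 held 14553821 and 17910056. Levels are given as CPM, in which a gene's counts are scaled to library size with TMM factors. They are not corrected for transcript length, so levels of different genes are not compared. Markers of the tissue were present in all libraries, including the neuronal gene SNAP25 and CRYM of tanycytes, the elongated glia of the third ventricle, while RAX, another tanycyte gene, lay between 0.232 and 2.87 CPM. Several cell type marker lists had different summed levels in the groups. The 8 astrocyte markers summed to 9744 and 10740 CPM in the follicular pools and to 6040 and 6144 CPM in the anestrus pools, and the 8 oligodendrocyte markers to 3450 and 4644 CPM in the follicular pools and 2924 and 1884 CPM in the anestrus pools. Pituitary markers summed to 7051 and 5363 CPM in the follicular pools, against 15430 and 11810 CPM in anestrus pools, a sum carried mostly by CGA. TSHB and CGA passed the test, lower in the follicular phase, while CHGA and LHB of the same list had positive log2 fold changes of 0.98 and 1.48 and did not pass. LHB was high in follicular pool 1 alone, at 118 CPM, against 27.9 CPM in follicular pool 2 and 31.9 and 20.8 CPM in the anestrus pools. Choroid plexus markers summed to 371 and 125 CPM in the follicular pools and 161 and 145 CPM in the anestrus pools. In follicular pool 1, TTR alone made up 252 CPM of that sum. In these bulk samples fewer cells of a type and less RNA per cell cannot be told apart.

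No WNT system gene passed the test for a difference between the follicular phase and anestrus. The members together took almost the same share of the library in every pool. Summed levels were 1564 and 1609 CPM in the follicular pools and 1588 and 1591 CPM in the anestrus pools. That sum was carried mostly by DKK3, FZD3, SFRP1 and LGR4, so it says little about the ligands. Beneath that sum, the WNT ligands WNT3A and WNT7B had higher levels in the follicular phase, and the secreted inhibitors SFRP4 and FRZB and the receptor RYK had higher levels in anestrus. These were the 5 members with an unadjusted p under 0.05. The members' median log2 fold change, follicular minus anestrus, was 0.04, beside 0.00 over all genes tested. A positive value was found for 29 of the 50 members tested (58%), beside 49.9% of all genes.

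Of the 58 members, 2 had no count in any library, 6 more were too low for the count filter, and 50 were tested. With edgeR's quasi-likelihood test, Benjamini-Hochberg adjusted over all 16756 genes tested, 0 of the 50 had an adjusted p under 0.05, where 0.203% of all genes did. The DESeq2 Wald test and limma-voom also called 0. Among the 33 members followed over the alternatives, DESeq2 gave WNT3A and WNT5B no adjusted p and so could not call them. Whether other members of low counts, such as WNT11 and NOTUM, also lacked one is not given here. An unadjusted p under 0.05 was found for 5 of the 50 members (10%), beside 8.55% of all genes. Of these, 2 were higher in the follicular phase, beside 4.26% of all genes, and 3 were lower, beside 4.29%. In 20 members (40%) the 2 groups had no overlap in CPM, beside 38.3% of all genes. Of these, 9 were higher in the follicular phase and 11 lower, shares of 18% and 22% beside 17.6% and 20.7% of all genes. As a set, the members were therefore close to the background of the comparison.

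**Figure D1:**
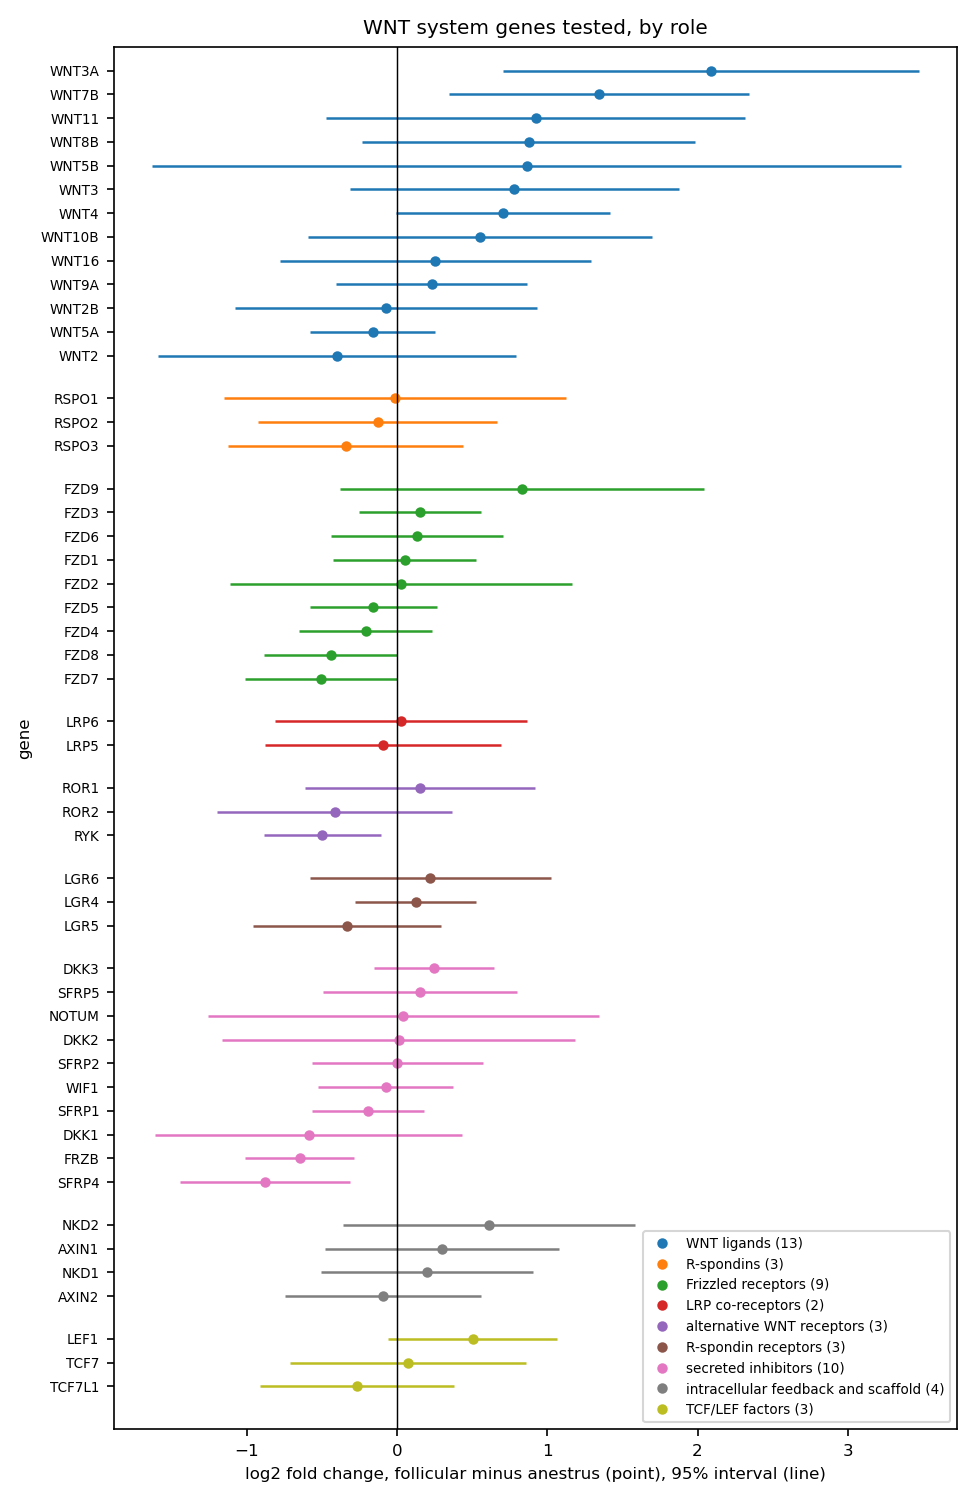
Log2 fold change, follicular minus anestrus (x axis, points), with its 95% interval (lines) for the 50 WNT system genes tested, grouped by role (y axis, colours). The intervals of WNT3A and WNT7B lie above 0 and those of RYK, FRZB and SFRP4 below 0, before any adjustment for multiple testing.

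The WNT ligands were the role class with the highest median, at 0.71, and 10 of 13 tested ligands had a positive log2 fold change. WNT3A, a ligand that typically activates the beta-catenin branch (gene 102184049), had 64 and 20 counts in the follicular pools, against 6 and 8 in those of anestrus, or 2.52 and 1.16 CPM in the follicular pools, against 0.421 and 0.444 CPM in the anestrus pools. Both follicular pools lay above both anestrus pools, but the follicular pools were themselves far apart. The log2 fold change was 2.09 ± 0.63 (SE, adjusted p = 0.323, edgeR). WNT3A entered the test through its follicular counts alone, since no anestrus library exceeded the filter's 0.571 CPM, and the same held for WNT11. A gene that enters in this way had to differ, so the count of 10 ligands does not by itself show a shift. Without the filter, 13 of 17 ligands with any count were positive. These still include WNT3A and WNT11, and the ligands added had low counts, WNT9B only 1 in all. That count therefore does not show a shift either.

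WNT7B, known for its part in the growth of brain vessels in mice (gene 102176768), was at 5.90 and 4.13 CPM in the follicular pools and at 2.66 and 1.33 CPM in the anestrus pools. The groups did not overlap, and the lower follicular pool was above the higher anestrus pool by a clear margin. The log2 fold change was 1.34 ± 0.45, a 2.54-fold higher level in the follicular phase (adjusted p = 0.395, edgeR). The adjusted p ran from 0.0116 without anestrus pool 1 to 1, and that fit leaves out the anestrus pool nearer to the follicular ones.

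WNT4, a ligand with known roles in the development of the gonads and pituitary in mice, was at 11.6 and 8.08 CPM in the follicular pools and 6.24 and 5.83 CPM in the anestrus pools. Its log2 fold change was 0.71 ± 0.32 (adjusted p = 0.59, edgeR). WNT8B, a ligand of the developing forebrain, was at 2.01 and 2.67 CPM in follicular pools, against 1.61 and 0.944 CPM in anestrus pools, with a log2 fold change of 0.88 ± 0.50. For both genes the groups did not overlap, yet the 95% interval of the log2 fold change reached below 0.

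WNT5A, which mostly signals without beta-catenin, was at 40.9 and 39.3 CPM in the follicular pools and 43.5 and 46.0 CPM in the anestrus pools. The groups lay close together without overlap. WNT5A had a log2 fold change of -0.16 ± 0.19, with a 95% interval of -0.57 to 0.25. The lower end of that interval reaches past the log2 fold change of RYK, -0.50. In the mouse, WNT5A is a ligand of ROR2 and RYK, which are described further on.

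The other ligands tested ran from a log2 fold change of -0.40 for WNT2 to 0.92 for WNT11, all with 95% intervals that include 0. WNT5B had 26 and 11 counts in the follicular pools, against 14 and 0 in those of anestrus, so the anestrus pools alone spanned nearly the whole range in CPM. WNT5B passed when anestrus pool 1 was left out (adjusted p = 0.025, edgeR, in a range of 0.025 to 1), where the group is reduced to the pool with 0 counts. The locus of WNT5B overlaps that of FBXL14 in the RefSeq gene table, and with the strand setting of the counting not given its reads may be shared. This gene was named after its values were seen.

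Some ligands lie next to each other among the protein-coding genes of the ARS1.2 assembly. WNT9A, the neighbour of WNT3A, was at 16.6 and 12.3 CPM in the follicular pools and 13.5 and 11.1 CPM in the anestrus pools, a log2 fold change of 0.23 ± 0.29. The difference between these neighbours was not tested. WNT3 was at 4.45 and 1.98 CPM in the follicular pools and 2.17 and 1.61 CPM in anestrus, while its neighbour WNT9B had 1 count in all. WNT10B, at 1.81 and 1.34 CPM in follicular pools, against 0.981 and 1.17 CPM in anestrus pools, lies next to WNT1, which had no count. The neighbours WNT10A and WNT6 were both below the filter.

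Markers of neurons, astrocytes, oligodendrocytes and microglia lay in the same direction as most ligands, though few passed the test. All 7 neuron markers matched had a positive log2 fold change, with a median of 0.35 and 0 passing, summing to 3063 and 3424 CPM in the follicular pools and 2728 and 2467 CPM in anestrus. All 8 astrocyte markers were positive too, with a median of 0.57, and 1 of them, GFAP, passed (adjusted p = 0.0316, edgeR). All 8 oligodendrocyte markers and all 7 microglia markers were positive, with medians of 0.76 and 0.24 and 0 passing. No marker of these 4 lists was at 0 in any pool. The direction was not particular to these lists, as 7 of 8 endothelial and 6 of 7 mural markers tested were also positive. Tanycyte and ependymal markers were mixed, with 5 of 9 positive. The part of any of these cell types in the ligand values was not tested.

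R-spondins, the secreted enhancers of WNT responses, had log2 fold changes between -0.34 and -0.01 in the 3 genes tested. RSPO1 was at 1.26 and 2.21 CPM in the follicular pools and 1.33 and 2.11 CPM in the anestrus pools, and RSPO2 at 4.37 and 5.46 CPM in the follicular pools and 6.31 and 4.44 CPM in the anestrus pools. RSPO3 was at 3.70 and 4.88 CPM in follicular pools, against 5.05 and 5.77 CPM in anestrus pools, with a log2 fold change of -0.34 ± 0.35. The pools of RSPO1 and RSPO2 overlapped between groups, those of RSPO3 did not, and RSPO4 had 3 counts in all.

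Of the LGR receptors that R-spondins bind, LGR4 was at 118 and 147 CPM in the follicular pools and 109 and 134 CPM in the anestrus pools, a log2 fold change of 0.13 ± 0.18. LGR5, a stem cell marker in several epithelia, was at 10.6 and 12.3 CPM in follicular pools, against 12.5 and 16.3 CPM in anestrus pools (log2 fold change -0.33 ± 0.28). LGR6 was at 4.84 and 5.11 CPM in follicular pools, against 3.44 and 5.05 CPM in anestrus pools (log2 fold change 0.22 ± 0.36). None passed, and when anestrus pool 1 was dropped the log2 fold changes of LGR4 and LGR6 were slightly negative, at -0.02 for both, as was LGR4 without follicular pool 2, at -0.04.

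Of the 10 Frizzled receptors, 9 were tested and FZD10 was below the filter. FZD7 and FZD8 had lower levels in the follicular phase, without overlap (2 of 9, or 22.2%, beside 20.7% of all genes), and the remaining 7 overlapped between groups. FZD7 was at 20.4 and 19.2 CPM in the follicular pools and 25.2 and 31.0 CPM in the anestrus pools, a log2 fold change of -0.50 ± 0.23. FZD8 was at 30.7 and 27.8 CPM in the follicular pools and 40.7 and 38.8 CPM in the anestrus pools, with -0.44 ± 0.20. Each had an adjusted p of 0.589 (edgeR), and over the alternatives it stayed between 0.186 and 1 for FZD7 and between 0.266 and 1 for FZD8.

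FZD3, needed for axon guidance in mice, was at 172 and 215 CPM in the follicular pools and 152 and 195 CPM in the anestrus pools, so that its pools within a group differed more than the groups. FZD4, the receptor of norrin in vessels, was at 50.7 and 45.7 CPM in follicular pools, against 47.6 and 63.7 CPM in anestrus pools (log2 fold change -0.21 ± 0.20). FZD9 was at 3.27 and 2.09 CPM in follicular pools, against 2.24 and 0.833 CPM in anestrus pools (log2 fold change 0.83 ± 0.55). The other 4, FZD1, FZD2, FZD5 and FZD6, had log2 fold changes between -0.16 and 0.13.

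The co-receptors of the beta-catenin branch did not separate the groups. LRP5 was at 12.4 and 7.84 CPM in the follicular pools and 13.6 and 8.11 CPM in the anestrus pools. LRP6 was at 18.8 and 23.4 CPM in the follicular pools and 12.4 and 28.8 CPM in the anestrus pools, the widest gap between pools of 1 group among the co-receptors. The 95% interval of the log2 fold change was -0.88 to 0.69 for LRP5 and -0.81 to 0.87 for LRP6. Differences within these intervals, in either direction, are therefore not excluded.

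RYK, an atypical receptor tyrosine kinase that binds WNT ligands (gene 102170271), was at 44.1 and 46.9 CPM in the follicular pools and at 64.6 and 63.6 CPM in the anestrus pools. Both groups were tight and well apart. RYK averaged 45.5 ± 1.99 CPM in follicular pools and 64.1 ± 0.752 CPM in anestrus (SD, n = 2 pools each). The level was 1.41-fold higher in anestrus. The log2 fold change of -0.50 ± 0.18 had an adjusted p of 0.428 (edgeR). Over the alternatives it ranged from -0.54 to -0.43 and the adjusted p from 0.173 to 1.

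ROR2, a receptor tyrosine kinase for WNT5A, was at 5.16 and 5.00 CPM in the follicular pools and 8.34 and 5.22 CPM in the anestrus pools, and its difference rested on anestrus pool 1. The log2 fold change was -0.41 ± 0.35, and dropping that pool brought it to -0.04. ROR1 was at 7.60 and 7.38 CPM in follicular pools, against 4.98 and 8.44 CPM in anestrus pools (log2 fold change 0.15 ± 0.35), and its anestrus pools enclosed the follicular ones.

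**Figure D2:**
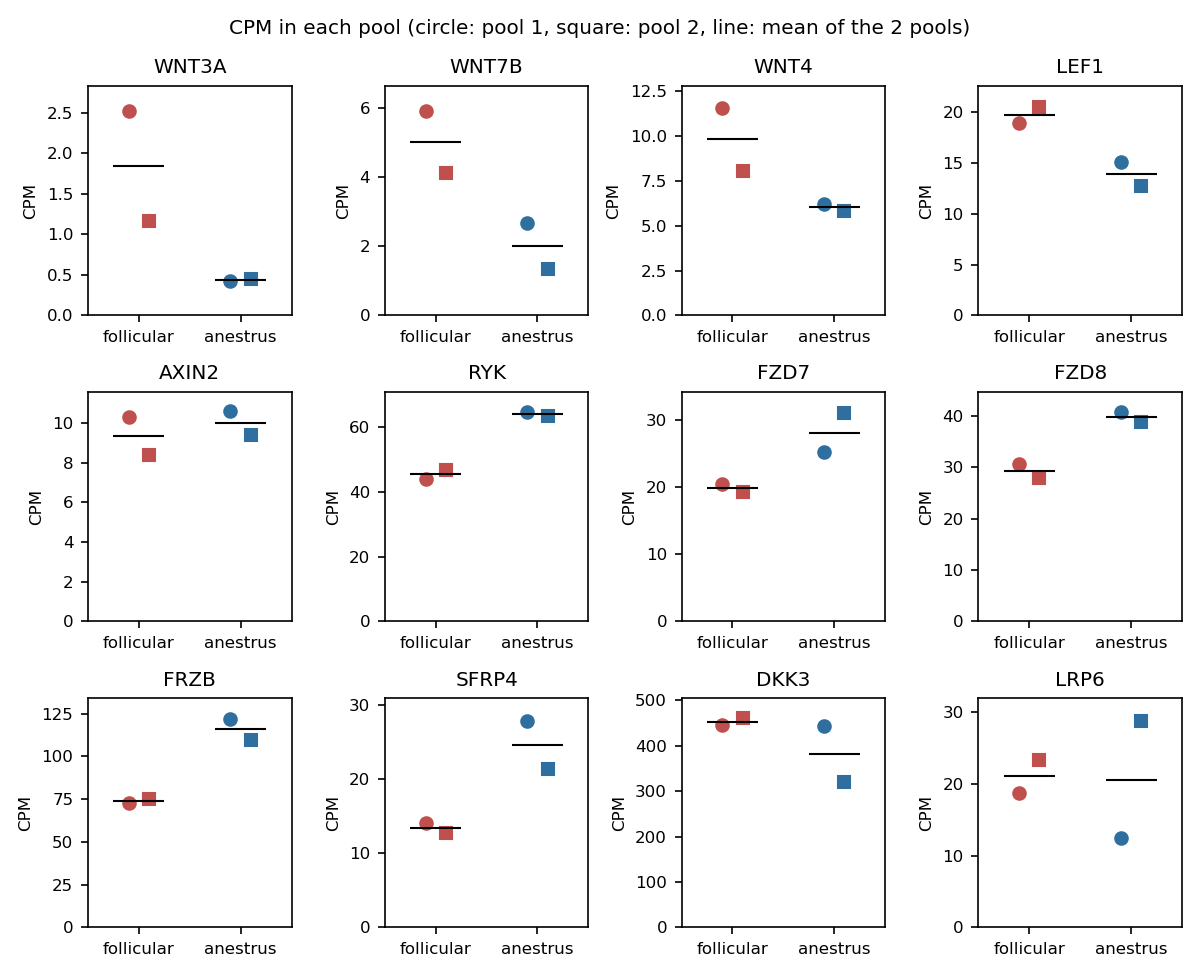
CPM (y axes, starting at 0) of 12 WNT system genes in the follicular pools (left) and anestrus pools (right of each panel), with circles for pool 1, squares for pool 2 and lines at the mean of the 2 pools. RYK, FRZB and SFRP4 lie lower in both follicular pools and WNT3A, WNT7B, WNT4 and LEF1 higher, while the anestrus pools of LRP6 enclose its follicular pools.

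Among the secreted inhibitors, all 10 in the table were tested, and FRZB and SFRP4 stood out by the size of the difference relative to its error. FRZB, a soluble Frizzled-related protein that binds WNT ligands (gene 102190175), was at 72.7 and 75.2 CPM in the follicular pools and 122 and 109.8 CPM in the anestrus pools. Each group was narrow and the gap between them wide. The averages were 74.0 ± 1.74 CPM in the follicular pools and 116 ± 8.45 CPM in anestrus (SD, n = 2 pools each). The level was 1.57-fold higher in anestrus. FRZB had the smallest p of all members, with a log2 fold change of -0.65 ± 0.16, unadjusted p = 0.00233 and adjusted p = 0.242 (edgeR). Its log2 fold change stayed between -0.68 and -0.57 over the alternatives, with adjusted p from 0.0247, without anestrus pool 2, to 1.

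SFRP4, of the same family of Frizzled decoys (gene 102178141), was at 14.1 and 12.7 CPM in the follicular pools and 27.9 and 21.4 CPM in the anestrus pools. The anestrus pools differed from each other but both exceeded the follicular ones. SFRP4 was 1.84-fold higher in anestrus, with a log2 fold change of -0.88 ± 0.25 (adjusted p = 0.311, edgeR). The adjusted p ranged from 0.0296, without anestrus pool 2, to 1, and the log2 fold change from -1.01 to -0.68. A fit with 1 anestrus pool has no spread within anestrus to weigh against, and so decides nothing about FRZB or SFRP4. The groups of RYK, FRZB and SFRP4 did not overlap. Leaving out a pool could therefore not change their direction, and the constant sign adds no support.

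Markers of meningeal fibroblasts, the connective tissue cells of the brain's coverings, lay in the same direction as these inhibitors. Of the 9 markers, 7 had a negative log2 fold change, with a median of -0.41, and 0 passed. They summed to 1149 and 1289 CPM in the follicular pools and to 1730 and 1662 CPM in the anestrus pools, and none was at 0 in any pool. DCN, the matrix proteoglycan decorin, was at 263 and 321 CPM in follicular pools, against 532 and 501 CPM in anestrus pools, a log2 fold change of -0.82, and LUM, lumican, had one of -0.60. SLC6A13 and PDGFRA of the same list went the other way, with 0.61 and 0.14. Tanycyte and ependymal markers summed to 1123 and 1056 CPM in the follicular pools and 1281 and 1105 CPM in anestrus. The part of these cells in the levels of FRZB and SFRP4 was not tested.

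Other inhibitors of the Frizzled-related family had smaller log2 fold changes than FRZB and SFRP4. SFRP1 was at 123 and 131 CPM in the follicular pools and 130.5 and 159.6 CPM in the anestrus pools (log2 fold change -0.19 ± 0.17), SFRP2 had a log2 fold change of 0.00 ± 0.26 and SFRP5 of 0.15 ± 0.29. SFRP3 is the other name of FRZB. WIF1, which binds WNT ligands directly, was at 57.6 and 42.7 CPM in follicular pools, against 49.5 and 56.2 CPM in anestrus pools (log2 fold change -0.08 ± 0.20).

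The Dickkopf genes differed in direction among themselves. DKK1, which blocks LRP5 and LRP6, had 38 and 24 counts in the follicular pools, against 32 and 38 in those of anestrus, or 1.496 and 1.39 CPM in the follicular pools, against 2.24 and 2.11 CPM in the anestrus pools. The groups did not overlap, but at these counts the log2 fold change of -0.59 ± 0.46 had an interval of -1.61 to 0.43. DKK3, a divergent member of the family, was at 446 and 461 CPM in the follicular pools and 443 and 321 CPM in the anestrus pools, and only anestrus pool 2 was low. DKK3 had a log2 fold change of 0.25 ± 0.18, which shrank to 0.08 when anestrus pool 2 was dropped. DKK2 was at 1.14 and 2.32 CPM in follicular pools, against 1.96 and 1.44 CPM in anestrus pools, and NOTUM, which removes the lipid of WNT ligands, had 12 to 20 counts per pool.

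AXIN2, NKD1 and LEF1, genes that beta-catenin activates in many tissues and that serve as readouts of the pathway, did not pass. AXIN2 was at 10.3 and 8.37 CPM in the follicular pools and 10.6 and 9.38 CPM in the anestrus pools, with overlapping groups. Its log2 fold change was -0.09 ± 0.30, with a 95% interval of -0.75 to 0.56. NKD1, which restrains the pathway by binding Dishevelled, was at 7.56 and 7.32 CPM in follicular pools, against 7.29 and 5.66 CPM in anestrus pools (log2 fold change 0.20 ± 0.32). LEF1 was at 19.0 and 20.5 CPM in the follicular pools and 15.1 and 12.7 CPM in the anestrus pools, without overlap. LEF1 was 1.42-fold higher in the follicular phase (log2 fold change 0.50 ± 0.25, adjusted p = 0.645, edgeR). Over the alternatives its log2 fold change ran from 0.43 to 0.63. Since the groups did not overlap, leaving out a pool could not change its direction, so the constant sign adds no support.

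The remaining intracellular members were spread between pools. NKD2 was at 15.9 and 10.98 CPM in the follicular pools and 12.7 and 5.00 CPM in the anestrus pools, so that anestrus pool 2 alone lay apart. The difference came to 0.61 ± 0.43 on the log2 scale. Dropping anestrus pool 1 gave 1.43 and a call (adjusted p = 0.00753, edgeR, in a range of 0.00753 to 1). AXIN1, a scaffold of the complex that degrades beta-catenin, was at 12.8 and 9.12 CPM in follicular pools, against 11.5 and 6.44 CPM in anestrus pools. TCF7 was at 4.49 and 4.13 CPM in the follicular pools and 4.14 and 4.05 CPM in anestrus (log2 fold change 0.07 ± 0.36). TCF7L1, a TCF factor that acts mostly as a repressor, was at 8.70 and 9.70 CPM in follicular pools, against 10.02 and 12.05 CPM in anestrus pools (log2 fold change -0.26 ± 0.29).

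Genes acting around these members did not pass either. Of 14 tested genes of WNT secretion and receptor regulation, 0 passed, with 8 positive and 6 negative log2 fold changes and a median of 0.03. An unadjusted p under 0.05 was found for 4 of the 14 (28.6%, beside 8.55% of all genes), 3 lower and 1 higher in the follicular phase. DKKL1, a secreted protein related to the Dickkopf family, was at 3.70 and 2.61 CPM in the follicular pools and 8.48 and 6.16 CPM in the anestrus pools (log2 fold change -1.20 ± 0.37, adjusted p = 0.337, edgeR). GPC3, a glypican of the cell surface, was at 53.9 and 86.6 CPM in the follicular pools and 109.5 and 116 CPM in the anestrus pools. TPBG, which inhibits WNT signalling in zebrafish, had a log2 fold change of -0.55 ± 0.19. The higher one was NDP, norrin, a ligand of FZD4, at 12.3 and 12.4 CPM in the follicular pools, against 8.55 and 6.11 CPM in the anestrus pools (log2 fold change 0.75 ± 0.31, adjusted p = 0.514, edgeR), named after its values were seen.

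The intracellular steps were close to balanced. Of 27 tested genes of beta-catenin degradation and transduction, 15 were positive and 12 negative, with a median of 0.03 and 0 passing. APC2 had the smallest p, at 14.1 and 10.6 CPM in the follicular pools and 7.99 and 5.89 CPM in the anestrus pools (log2 fold change 0.84 ± 0.32, adjusted p = 0.47, edgeR), while DVL3, a Dishevelled protein, had a log2 fold change of -0.32 ± 0.16 and the corepressor TLE3 of 0.29 ± 0.19. Of 14 planar cell polarity genes, which guide cell orientation without beta-catenin, 6 were positive, 8 negative and 0 passed. DAAM2 was at 99.3 and 103 CPM in the follicular pools and 78.8 and 77.3 CPM in the anestrus pools, a log2 fold change of 0.38 ± 0.16. PRICKLE3 and INVS had log2 fold changes of -0.78 ± 0.36 and -0.32 ± 0.19.

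Known transcriptional targets of beta-catenin, a list that holds several of the members, had 10 positive and 8 negative log2 fold changes among 18 tested, a median of 0.01 and 0 passing. CD44, a cell surface receptor of hyaluronan, was at 40.2 and 34.6 CPM in the follicular pools and 61.4 and 69.2 CPM in the anestrus pools, against the direction of LEF1. Its log2 fold change was -0.80 ± 0.19 (adjusted p = 0.217, edgeR). PROX1, a homeobox factor, had one of -0.31 ± 0.20.

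**Figure D3:**
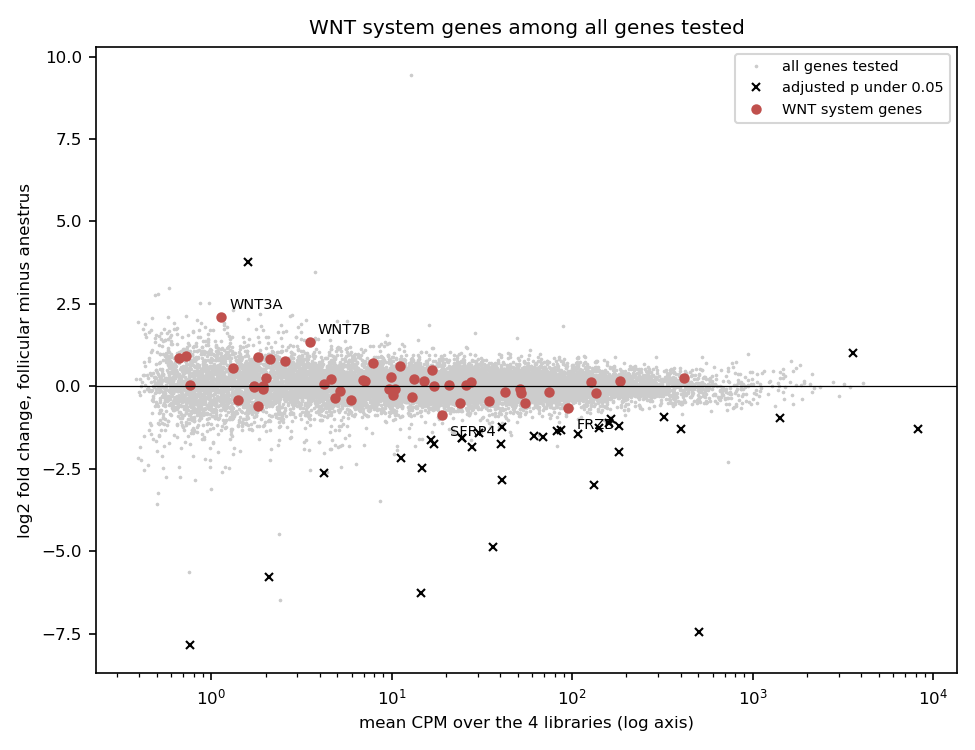
Log2 fold change, follicular minus anestrus (y axis), against mean CPM over the 4 libraries (x axis, log scale) for all genes tested (grey), the genes with an adjusted p under 0.05 (crosses) and the 50 WNT system genes (red). The WNT system genes lie within the cloud of all genes, and 2 of them, WNT3A and WNT7B, exceed a log2 fold change of 1 in size.

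The pools of a group also differed from each other. For 35 of the 50 tested members (70%), the larger of the 2 log2 ratios between pools of 1 group exceeded the size of the log2 fold change between groups, the ratios being taken after adding 0.5 CPM. The same held for 70.7% of all genes tested, so the members were like other genes in this. LRP6, NKD2, WNT5B, FZD9 and WNT3 were among the members with wide gaps. FRZB, SFRP4, RYK, WNT3A and WNT7B, the members with the smallest unadjusted p (edgeR), had gaps smaller than their difference between groups. A small p already favours genes with such gaps, so this adds no support. The ratio of pool 1 to pool 2 had the same sign in both groups for 32 members (64%), beside 62.3% of all genes tested.

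**Figure D4:**
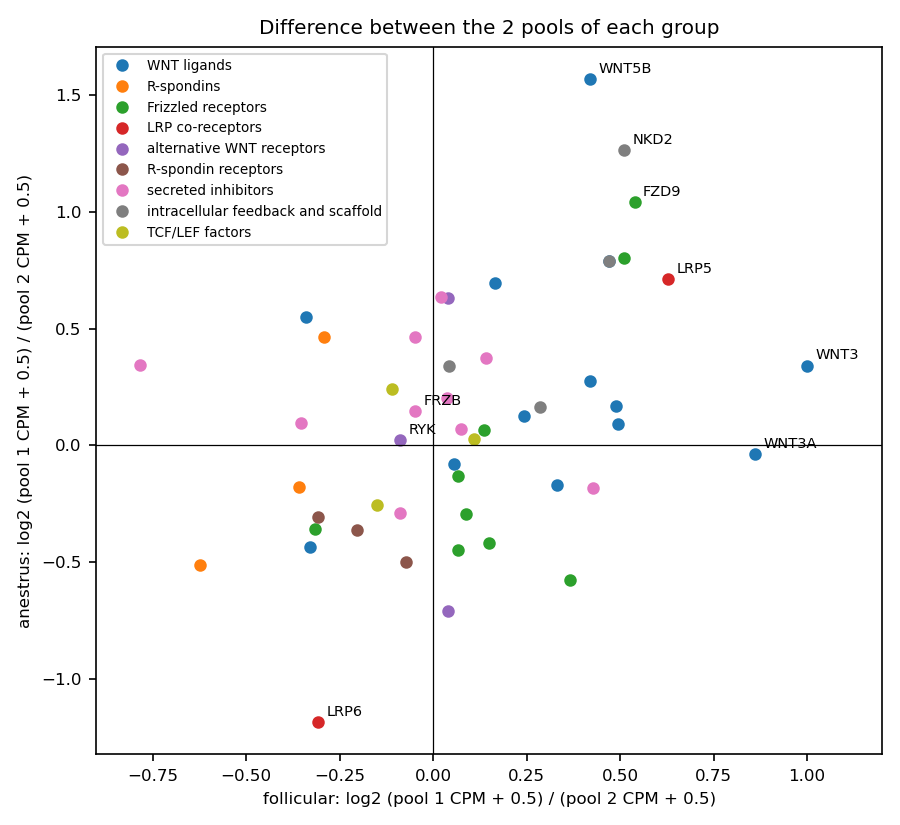
Log2 ratio of pool 1 to pool 2, after adding 0.5 CPM, in the follicular phase (x axis) and in anestrus (y axis) for the 50 WNT system genes tested, coloured by role. LRP6 had a higher level in pool 2 of both groups and LRP5, NKD2, FZD9 and WNT5B in pool 1 of both, while RYK and FRZB lie near the origin.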

How the data were processed

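Medio-basal hypothalamus RNA was sequenced in pools, 2 for the follicular phase and 2 for anestrus. The authors deposited raw counts per gene with no normalization. TriReagent extraction preceded Truseq stranded mRNA libraries, per the labels' protocols. The tools named in the submitters' processing notes are featureCounts 2.0.0, SAMtools 1.9, Bowtie2 2.3.5.1, TopHat2 2.1.1, FastQC and bcl2fastq 2.20. Not given in the sources used here are the build, the strand setting and the handling of multi-mapping reads, so near-identical or overlapping genes are uncertain and no coordinates are printed. All 58 members matched the RefSeq gene table (ARS1.2) by identifier and symbol.

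Genes were filtered with filterByExpr (minimum count 10, minimum total 15), given TMM factors and passed to the quasi-likelihood test of edgeR 4.0.16 under R 4.3.3, with robust estimation and no covariates, which leaves 2 residual degrees of freedom. The standard error of a log2 fold change is its size divided by the square root of F, and 95% intervals use the moderated degrees of freedom. P-values are 2-sided. Library totals ranged from 14553821 to 25292678 counts, at which 1 count is 0.0394 to 0.0701 CPM. These steps were checked on simulated data. Alternatives used DESeq2 1.42.0, limma 3.58.1, other scalings and filters, a replicate block and each pool left out.

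Members and gene lists were chosen with earlier results of these data known. Values in every pool are given for any called member and for up to 4 members per role class with the smallest p. They are also given for the member with the highest mean CPM per class, and for AXIN2, LEF1 and NKD1. Beside these, genes discussed by name as neighbours, relatives or cell type markers were chosen after their values were seen. From each pathway list, called genes and up to 3 with the smallest p are named. Of the list entries, 9 matched no symbol.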

Additional observations from a re-analysis of the deposited data

How the results depend on the processing

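Over 14 alternatives, 0 WNT system genes passed in 12, and between 0 and 3 passed when 1 pool was left out. The exceptions were the fits without anestrus pool 1, for WNT5B, WNT7B and NKD2, and without anestrus pool 2, for FRZB and SFRP4. Each leaves a lone anestrus pool with no spread to weigh against, so it decides nothing about these members. Without anestrus pool 1, calls over all genes rose as well. The calls over all genes, 34 with all pools, moved more, to 300 without the count filter, 143 with the DESeq2 Wald test, and from 4 (without follicular pool 1) to 810 (without anestrus pool 1) when 1 pool was left out. The cause was not tested. The median log2 fold change of the members stayed between 0.009 and 0.066, and the number of ligands with a positive value between 8 and 13, a count added after the data were seen.

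Anestrus pools are numbered one way in titles and the other way in library names, and no source says that a number pairs pools. By the library-name numbers, deviations of same-numbered pools from their group means correlated at 0.26 over all genes and 0.399 over the tested members. The title numbers would reverse the sign of both correlations. With a replicate block, 90 genes were called by the library-name numbers and 130 by the crossed numbers of the titles, with 0 members called in both.

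For the 33 members followed, including WNT5B added later, 435 of 461 values kept their direction and their side of the threshold, 5 gained a call and 21 changed sign. The values counted as kept include those of WNT3A and WNT5B with DESeq2, which had no adjusted p. No member passed with all pools, and where the groups did not overlap, leaving out a pool could not change the sign. The number of values kept was therefore partly fixed in advance. RSPO1, at -0.015, was at 0.0075 with upper-quartile factors, 0.00029 with library totals and 0.01 with DESeq2. The other changes of sign arose on leaving out a pool, where the log2 fold change ran from -0.456 to 0.404 for RSPO1, -0.321 to 0.14 for RSPO2, -0.014 to 0.39 for FZD3, -0.404 to 0.063 for FZD4, -0.442 to 0.325 for LRP5, -0.453 to 0.808 for LRP6, -0.173 to 0.633 for ROR1, -0.036 to 0.331 for LGR4, -0.024 to 0.577 for LGR6, -0.018 to 0.772 for AXIN1, -0.236 to 0.048 for AXIN2 and -0.172 to 7.102 for WNT5B. The upper value for WNT5B is set against a lone pool with 0 counts and is no estimate of a fold. WNT3A, WNT11 and WNT5B each had fewer than 10 counts in at least 1 pool, which limits the precision of their values.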
